A study of Ambystoma mexicanum with 12 samples.

Results

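Differences between single blastemas that had the same treatment were described in all 12 of 12 libraries, 6 from Am580-treated and 6 from DMSO-treated axolotls. For each gene the mean log2 CPM (counts per 1000000 counted pairs) of its own treatment was subtracted from each library, so that only the deviation of a blastema from its treatment remained. Of 36917 genes in the count table, 25879 had at least 10 counts in at least 6 libraries and were described. The mean difference between the treatments was removed by construction and is not a subject here.

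The Am580 group received 25 nM Am580, a synthetic agonist of retinoic acid receptor alpha, as a systemic treatment for 5 days, starting 24 hours after the forelimb was cut through the zeugopod. The DMSO group received the same volume of the solvent on the same days. All animals were of the albino strain. Tissue was taken 24 hours after the end of treatment from right forelimb blastemas, the epidermis was pulled off, and each poly-A library holds the mesenchyme of a single blastema. The Am580 animals sequenced were those whose other limb showed the strongest duplication and the DMSO animals were taken from those with none, so treatment and choice of animal cannot be told apart. The animals were large juveniles, and their sex is not given in the sources used here.

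A blastema is the mound of cells that forms on an amputated salamander limb and rebuilds the missing part. Its mesenchyme comes mainly from connective tissue cells of the stump, and it also holds blood vessels, immune cells, Schwann cells along regrowing nerves, and muscle and skeletal tissue from the cut edge. In whole tissue, fewer cells of a type and less RNA per cell cannot be told apart.

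The libraries held between 27226012 and 43793138 counted read pairs, and the 10 most abundant genes took between 8.54% and 10.4% of them. No pair of libraries held identical values. Mesenchymal genes were high in both treatments. The fibrillar collagen gene COL3A1 averaged 7689 CPM in Am580 and 8742 CPM in DMSO blastemas, and prrx1, a transcription factor of limb mesenchyme, averaged 160 CPM in Am580 and 224 CPM in DMSO blastemas. Both were named after their values were seen.

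Most genes differed little between blastemas of a treatment. The median SD over genes was 0.302 log2 units among Am580 blastemas and 0.290 among DMSO blastemas, and the SD pooled over both treatments had a median of 0.314. The upper end was long. The pooled SD exceeded 0.5 in 6654 genes, 1 in 1613 genes (6.23%) and 2 in 301 genes, and the top 10% of genes began at 0.808. Spread was largest among the lowest genes in both treatments. Below 1 CPM the median SD was 0.505 in Am580 and 0.529 in DMSO blastemas, and between 30 and 100 CPM it was 0.188 in Am580 and 0.177 in DMSO blastemas. At 100 CPM or more it was 0.200 in Am580 and 0.187 in DMSO blastemas.

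Whether Am580 changed the spread over all genes was asked with 1 value per library, the median over genes of the absolute deviation from its treatment mean. The 6 Am580 libraries gave 0.311, 0.154, 0.159, 0.149, 0.192 and 0.177 log2 units for replicates 1 to 6. The 6 DMSO libraries gave 0.227, 0.159, 0.178, 0.170, 0.163 and 0.225 log2 units for replicates 1 to 6. Am580 1 stood above all other libraries, and the remaining Am580 libraries lay within or below the DMSO range. The means were 0.190 ± 0.061 in Am580 and 0.187 ± 0.031 in DMSO blastemas (SD, n = 6 each), with a difference of 0.0032 and p = 0.922 in an exact two-sided permutation test over 924 assignments. The median log2 ratio of the SDs, Am580 over DMSO, was 0.03, and 51.8% of genes had the larger SD in Am580 blastemas. The biological coefficient of variation, which takes counting noise out, was 0.314 in Am580 and 0.317 in DMSO blastemas.

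That balance rested on 1 blastema. Without Am580 1 the mean of the remaining Am580 libraries minus that of the DMSO libraries was -0.0343 log2 units (exact permutation p = 0.0411), the median log2 SD ratio was -0.28, and 35.4% of genes had the larger SD in Am580 blastemas. Am580 1 had the largest value of all libraries, so leaving it out was bound to lower the Am580 mean. With any other single library left out, exact permutation p-values lay between 0.779 and 0.985. The p of 0.0411 was thus the lowest of these runs and does not show less spread under Am580. Leaving out DMSO 1 together with Am580 1, an alternative chosen after seeing the data, gave a difference of -0.0228 (exact permutation p = 0.0635). Without DMSO 1 alone the median log2 SD ratio was 0.12, and without DMSO 6 alone it was 0.14.

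**Figure D1:**
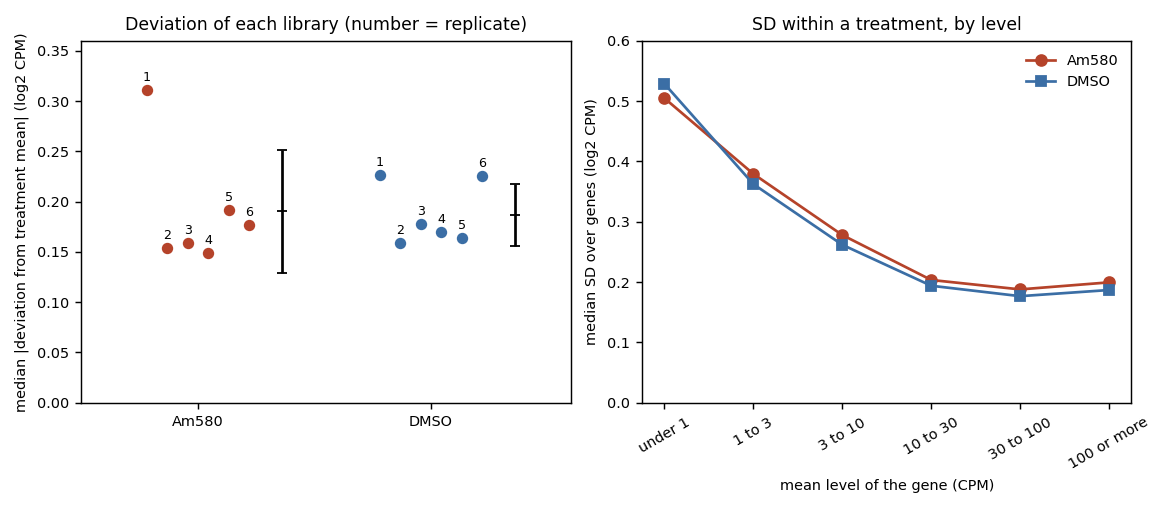
Left, the median absolute deviation of each library from its treatment mean in log2 CPM, with the replicate number above each point and the mean ± SD of 6 libraries beside them. Right, the median SD over genes within Am580 (circles) and DMSO (squares) against the mean level of the gene in CPM. Am580 1 lies at 0.311, above the 11 other libraries, and the curves of both treatments nearly coincide.

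In Am580 1, 2347 genes lay more than 1 log2 unit from their treatment mean, against 946 to 1590 in each of the 11 other libraries. Genes with at least 5000 exon bases (4570 genes) had a median deviation of -0.18 log2 units in Am580 1 and of -0.08 in DMSO 1, and of 0.11 in DMSO 6, the 3 libraries with the largest deviations. Genes under 1000 exon bases had median deviations of -0.03 in Am580 1, 0.05 in DMSO 1 and -0.03 in DMSO 6, and genes between these classes 0.05, 0.02 and -0.01 in the same libraries. Ribosomal protein genes, which encode the proteins of the ribosome, deviated more in these libraries. Of 62 tested, 58 were above their treatment mean in Am580 1 (mean deviation 0.42), 59 in DMSO 1 (0.40) and 5 in DMSO 6 (-0.37). Their median pairwise correlation of deviations over the 12 libraries was 0.82, beside a median near 0 for all gene pairs (-0.0015). The part of length in the spread was not tested. Without Am580 1, 5 of the 62 ribosomal protein genes had the larger SD in Am580 blastemas, against 32 of 62 with it.

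Genes without a reference transcript varied most. These are loci that the assembly found in the reads alone, and they made up 10646 (41.1%) of the genes described. Their median pooled SD was 0.384, and 9.53% exceeded 1. The 15233 genes with a reference transcript had a median pooled SD of 0.266, and 3.93% exceeded 1. The 9846 genes with a gene symbol had a median pooled SD of 0.234, and 1.86% exceeded 1. The loci without a reference transcript were also lower, with a median level of 2.203 CPM beside 10.8 CPM for genes with a reference transcript and 14.1 CPM for those with a symbol.

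The named genes with the largest spread were of mixed function, and several were near zero in a few blastemas and plainly present in the rest. HEXA, a subunit of a lysosomal hexosaminidase, ranged between 1.87 and 69.9 CPM in Am580 blastemas (median 61.9), and between 0.74 and 58.5 CPM in DMSO blastemas (median 25.4). It was low in Am580 5, DMSO 2 and DMSO 6 only. ENO2, a glycolytic enolase, ranged between 2.33 and 33.4 CPM in Am580 blastemas (median 21.04), and between 0.552 and 32.2 CPM in DMSO blastemas (median 22.5). The lowest values were in Am580 4 and 5 and in DMSO 1 and 6, and the treatments overlapped throughout.

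NDUFAF3, an assembly factor of mitochondrial complex I, was at 1.28 CPM in Am580 1, 1.17 CPM in Am580 6 and 1.48 CPM in DMSO 4, and at 20.8 to 43.4 CPM in the 9 other libraries. MRI1, an enzyme of methionine salvage, was at 0.633 CPM in Am580 6 and 0.494 CPM in DMSO 6, and at 9.78 to 29.1 CPM in the 10 others. The mitochondrial RNA regulator tbrg4 was at 1.12 CPM in Am580 4 and 1.81 CPM in DMSO 2, and at 11.1 to 25.7 CPM in the others. In each of these genes the low libraries came from both treatments.

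TCEA2, a transcription elongation factor, was at 16.0 to 38.4 CPM in all 6 Am580 blastemas, but at 1.79 CPM in DMSO 5 and 0.463 CPM in DMSO 6 beside 14.1 to 31.8 CPM in the other DMSO blastemas. MASP2, a complement-activating protease, was at 3.50 to 6.73 CPM in Am580 blastemas. It was at 0.0324 CPM in DMSO 1, below the 0.0972 CPM that 3 counts would give there, and at 4.84 to 12.6 CPM in the other DMSO blastemas. The growth factor gene ptn had a different form of spread, with 1.83 to 8.61 CPM in Am580 blastemas (median 3.99) and 1.62 to 32.0 CPM in DMSO blastemas (median 18.5). HAS1, which makes hyaluronan, ranged between 1.13 and 6.40 CPM in Am580 blastemas (median 1.997), and between 1.10 and 31.6 CPM in DMSO blastemas (median 17.7), with DMSO 1 the only DMSO blastema below 9.44 CPM.

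Of the marker lists, those for epidermis and cartilage differed most between blastemas. Epidermal genes led the 21 lists of markers and programmes. Their median pooled SD was 0.996 over 16 genes tested, and 11 of the 16 lay in the top 10% of all genes. The Am580 libraries lay between -0.47 and 0.52. DMSO 1 had a mean deviation of 2.12 log2 units with 15 of 16 genes above the treatment mean, while DMSO 3 and DMSO 4 lay at -1.10 and -0.81. COL17A1, a collagen of the junctions that hold basal keratinocytes to their membrane, ranged between 2.50 and 8.90 CPM in Am580 blastemas (median 4.12), and between 0.651 and 78.5 CPM in DMSO blastemas (median 2.25). Only DMSO 1 was above the Am580 range. The laminin chain gene lamb3 ranged between 3.94 and 25.1 CPM in Am580 blastemas. It was at 51.3 CPM in DMSO 1, and between 1.92 and 12.4 CPM in the other DMSO blastemas.

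Of the 16 epidermal genes, 2 had the larger SD in Am580 blastemas. Without DMSO 1 it was 8 of 15, and the median pooled SD of the list was 0.584. The keratin gene KRT18, chosen after its values were seen, at a mean of 435 CPM in Am580 and 595 CPM in DMSO blastemas, had a pooled SD of 0.19. That value does not stand for all keratins. The loci MSTRG.17852 and MSTRG.7844, named only keratin, averaged 76.7 and 43.2 CPM over all libraries, with pooled SDs of 1.85 and 2.09. The epidermis was removed by hand from each blastema, and how much of it was left is not given in the sources used here.

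Cartilage genes followed with a median pooled SD of 0.972 over 15 genes, 9 of them in the top 10%. Am580 3 and Am580 1 were high at mean deviations of 0.73 and 0.57. DMSO 3 was highest at 1.55 with 14 of 15 genes above the treatment mean, and DMSO 6 lowest at -0.95. COL9A3, a chain of the type IX collagen of cartilage, was at 190 CPM in Am580 1, 175 CPM in Am580 3 and 28.4 to 54.1 CPM in the other Am580 blastemas. It was at 320 CPM in DMSO 3 and 14.4 to 47.6 CPM in the other DMSO blastemas. CNMD, the chondrocyte protein chondromodulin, was at 3.80 to 21.3 CPM in Am580 blastemas, and at 91.6 CPM in DMSO 3 beside 2.62 to 8.67 CPM in the other DMSO blastemas. COL10A1, a collagen of hypertrophic chondrocytes, was at 1.23 to 11.6 CPM in Am580 blastemas, and at 76.0 CPM in DMSO 3 beside 6.003 to 18.04 CPM in the other DMSO blastemas. COL10A1 was counted in the bone list, not among the 15 cartilage genes.

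Of the 15 cartilage genes, 5 had the larger SD in Am580 blastemas, and 11 of 15 without DMSO 3. The matrilin gene matn1 did not follow the collagens. It was at 0.925 to 8.55 CPM in Am580 blastemas (median 3.49) and 0.401 to 14.8 CPM in DMSO blastemas (median 11.95), with Am580 6, DMSO 4 and DMSO 6 lowest.

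Genes of Schwann cells and nerve had a median pooled SD of 0.525 over 18 genes, 4 in the top 10%. DMSO 3 stood apart at -1.02, with 2 of 18 genes above the treatment mean. UGT8, which makes myelin lipids, was at 0.0637 to 1.72 CPM in Am580 blastemas, and at 0.0888 CPM in DMSO 3 beside 1.47 to 2.08 CPM in the other DMSO blastemas. The larger SD was in Am580 blastemas in 4 of 18 genes, and in 10 of 18 without DMSO 3.

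Erythroid genes had a median pooled SD of 0.808 over 7 genes, 4 in the top 10%. Among Am580 blastemas they were highest in Am580 2 (0.54) and lowest in Am580 1 (-0.63), and among DMSO blastemas highest in DMSO 2 (0.93) and lowest in DMSO 6 (-0.95). The haem synthesis gene alas2 ranged between 15.9 CPM in Am580 1 and 65.6 CPM in Am580 2, and between 9.72 CPM in DMSO 6 and 83.4 CPM in DMSO 2. SLC4A1, the band 3 anion exchanger of red cells, ranged between 5.77 and 32.0 CPM in Am580 blastemas (median 19.96), and between 4.69 and 48.8 CPM in DMSO blastemas (median 20.4). The locus MSTRG.20852, named only beta-globin, averaged 1709 CPM over all libraries with a pooled SD of 1.12. It was not among the 7 genes of the list.

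Skeletal muscle genes had a median pooled SD of 0.645 over 39 genes, 5 in the top 10%. They moved in step, with a median pairwise correlation of 0.53. Am580 1 (0.51) and DMSO 1 (0.65) were highest, and Am580 5 (-0.61) and DMSO 3 (-0.62) lowest. The muscle creatine kinase gene ckm ranged between 1007 and 7132 CPM in Am580 blastemas (median 2279), and between 1478 and 5994 CPM in DMSO blastemas (median 3022). The myosin gene myh8 did not follow ckm in every library, with 5.94 to 79.9 CPM in Am580 blastemas (median 27.7) and 19.3 to 120 CPM in DMSO blastemas (median 54.0).

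**Figure D2:**
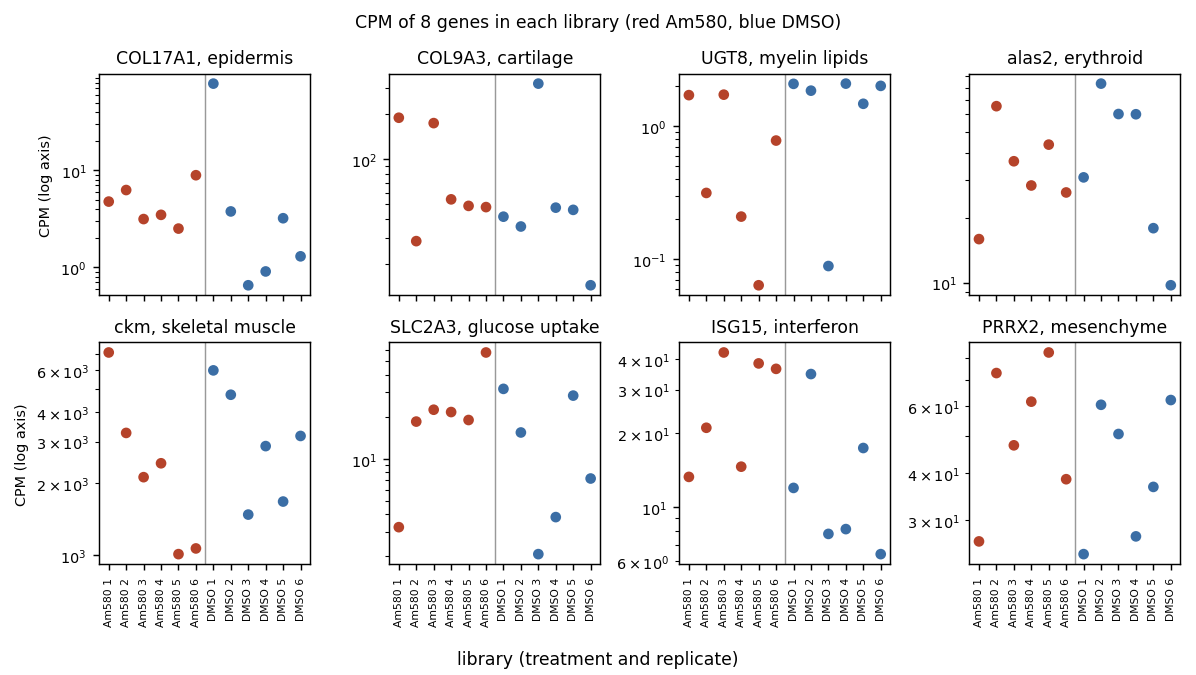
CPM on a log axis in each of the 6 Am580 (red) and 6 DMSO (blue) libraries for 8 genes that stand for epidermis, cartilage, myelin lipid synthesis, red cells, muscle, glucose uptake, the interferon response and limb mesenchyme. COL17A1 reaches 78.5 CPM only in DMSO 1, COL9A3 320 CPM in DMSO 3, and UGT8 is at 0.0888 CPM in DMSO 3 beside 1.47 CPM or more in the other DMSO libraries.

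Immune and bone-resorbing cells covered a wide range. The lists for granulocytes (median pooled SD 0.562, 8 genes), lymphocytes (0.421, 8 genes), macrophages (0.327, 10 genes) and osteoclasts (0.381, 11 genes) held 3, 1, 0 and 0 genes of the top 10%. Osteoclast genes were high in Am580 6 (mean deviation 0.65) and in DMSO 5 (0.38), with 11 of 11 genes above the treatment mean in both. DCSTAMP, which drives fusion of osteoclast precursors, ranged between 1.68 and 12.7 CPM in Am580 blastemas (median 3.48), and between 83.8 and 159 CPM in DMSO blastemas (median 91.3). The highest Am580 value was in Am580 6 and the highest DMSO value in DMSO 5. The integrin gene itgb3 was highest in the same libraries, at 116 CPM in Am580 6 and 275 CPM in DMSO 5. SLC11A1, a metal transporter of phagocytes, ranged between 23.6 and 86.9 CPM in Am580 blastemas (median 58.5), and between 53.8 and 105 CPM in DMSO blastemas (median 90.3), with Am580 1 lowest. CSF3R, the receptor that drives granulocyte production, ranged between 42.6 and 110 CPM in Am580 blastemas (median 66.0), and between 20.5 and 141 CPM in DMSO blastemas (median 91.0).

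Stress and inflammatory programmes moved in some of the same libraries. Interferon response genes (median pooled SD 0.512, 20 genes, 4 in the top 10%) were highest in Am580 6, where 19 of 20 were above the treatment mean (mean deviation 0.45). ISG15, an interferon-induced ubiquitin-like protein, nevertheless ranged widely, between 13.2 and 42.5 CPM in Am580 blastemas (median 28.7) and between 6.42 and 34.7 CPM in DMSO blastemas (median 10.03). HERC6, a ligase of the same response, was highest in Am580 6 at 34.2 CPM and in DMSO 2 at 18.1 CPM. Immediate early and heat shock genes (0.480, 28 genes, 6 in the top 10%) were high in Am580 6 (0.38) and DMSO 1 (0.48). The stress factor ATF3 was at 16.98 CPM in Am580 6 and 14.6 CPM in DMSO 1, and at 2.71 to 8.96 CPM in the others.

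Hypoxia and glycolysis genes (0.361, 21 genes, 4 in the top 10%) were high in DMSO 5 (0.41) and DMSO 1 (0.32). The glucose transporter gene SLC2A1 was at 9.21 to 39.4 CPM in Am580 blastemas, and at 188 CPM in DMSO 5 and 168 CPM in DMSO 1 beside 21.9 to 58.4 CPM in the other DMSO blastemas. DDIT4, an inhibitor of mTOR that hypoxia induces, was also high in both, at 104 CPM in DMSO 1 and 59.2 CPM in DMSO 5 beside 15.5 to 25.8 CPM in the other DMSO blastemas. Another glucose transporter gene, SLC2A3, ranged between 3.23 and 57.8 CPM in Am580 blastemas (median 20.3), and between 2.07 and 31.7 CPM in DMSO blastemas (median 11.3), with Am580 1 and DMSO 3 lowest.

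Some lists held no gene of the top 10%, as the macrophage and osteoclast lists did not. Genes of connective tissue (median pooled SD 0.336, 22 genes), endothelium (0.315, 27 genes), smooth muscle and pericytes (0.308, 14 genes) and the cell cycle (0.235, 32 genes) were of this kind. The median was 0.314 over all genes and 0.234 over genes with a gene symbol. Listed genes all have a symbol, so the second median is the nearer one. Only the cell cycle list lay close to it, and the others named here lay above it. Vimentin (VIM), at a mean of 3244 CPM in Am580 and 4517 CPM in DMSO blastemas, had a pooled SD of 0.14, and the limb bud factor Twist1 had 0.11. These last genes were chosen after their values were seen. PRRX2, the most variable connective tissue gene, ranged between 26.4 and 82.9 CPM in Am580 blastemas (median 54.4), and between 24.4 and 62.2 CPM in DMSO blastemas (median 43.7). Of the 32 cell cycle genes, 8 had the larger SD in Am580 blastemas. DMSO 1 (-0.34) and DMSO 6 (0.31) were the extremes of that list.

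Genes of the retinoid pathway, the pathway Am580 acts on, had a median pooled SD of 0.415 over 12 genes, 1 in the top 10%. The 12 genes did not move together (median pairwise correlation -0.05). The list was matched by gene name, and a locus whose only name was cut to a general word could not enter it. The paper's transcripts of CP26A and RARB, among its most upregulated, carry the cut names cytochrome and retinoic. The values therefore stand for the 12 genes and not for the whole pathway. The mean deviation of the list lay between -0.08 and 0.12 over the Am580 blastemas and between -0.19 and 0.21 over the DMSO blastemas. The retinaldehyde reductase gene DHRS3, named here after its values were seen, averaged 293 CPM in Am580 and 18.2 CPM in DMSO blastemas with a pooled SD of 0.17. LRAT, which stores retinol as esters, was the most variable member, at 2.93 to 5.91 CPM in Am580 blastemas (median 3.78) and 1.15 to 12.4 CPM in DMSO blastemas (median 3.14). Limb patterning genes (0.378, 24 genes, 1 in the top 10%) were lowest in Am580 6 (-0.37). The stylopod factor SHOX2 was lowest there among Am580 blastemas, at 2.38 CPM beside 5.07 to 14.4 CPM, and ranged between 1.26 and 10.5 CPM in DMSO blastemas. Bone genes (0.552, 4 genes, 1 in the top 10%), circadian clock genes (0.482, 15 genes, 1) and ribosomal protein genes (0.283, 62 genes, 2) complete the 21 lists.

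**Figure D3:**
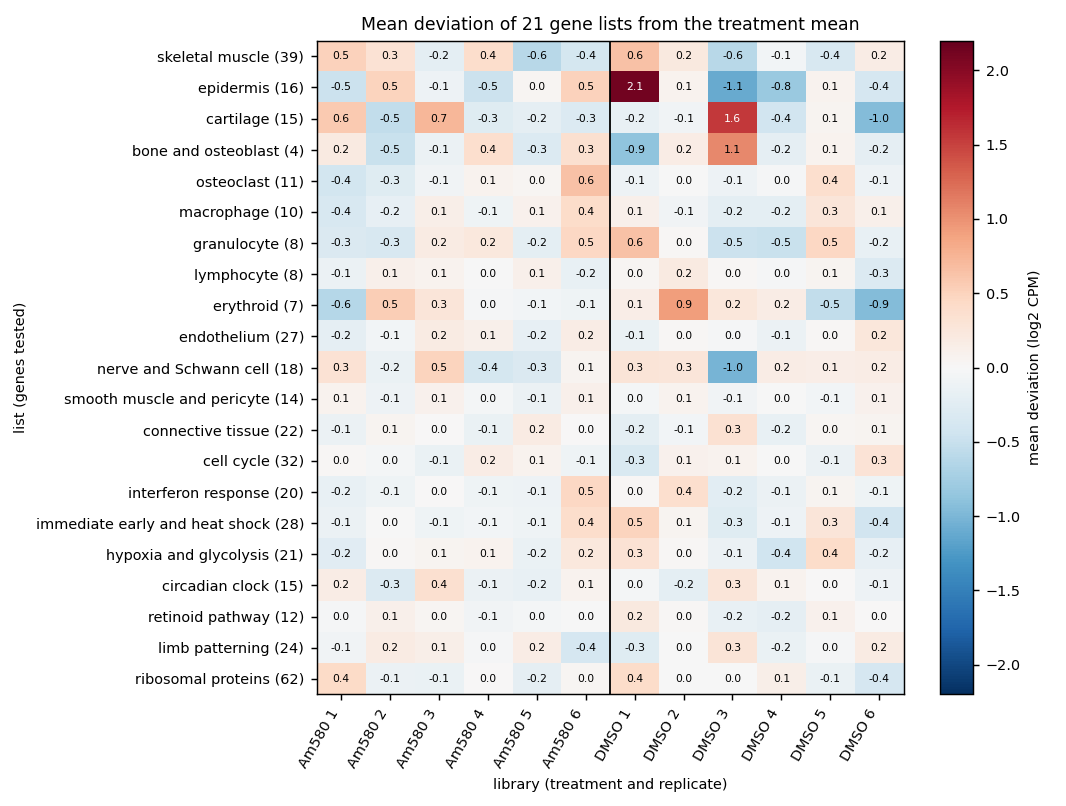
Mean deviation from the treatment mean, in log2 CPM, of each of 21 gene lists (rows, with the number of genes tested) in 6 Am580 and 6 DMSO libraries (columns). The strongest cells are epidermis in DMSO 1 (2.12), cartilage in DMSO 3 (1.55), epidermis in DMSO 3 (-1.10) and bone in DMSO 3 (1.05), with red for a mean above and blue for a mean below the treatment mean. The bone list has 4 genes and includes COL10A1, which the text describes with cartilage.

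Genes that varied together were sought among the 1000 genes with the largest pooled SD and a mean of at least 1 CPM, joined where their deviations had a mean correlation of at least 0.6. This gave 15 groups of 15 genes or more, with 534 genes in all. The groups were built from these values, so their profiles are a description. The largest, with 138 genes, was highest in Am580 6 (1.298) and DMSO 1 (2.76) and lowest in DMSO 3 (-1.48) and DMSO 4 (-1.34). It held the epidermal genes COL17A1, lamb3, DSG2, epcam and cdh1 together with SLC2A1 and SLC2A3, the granulocyte gene epx and the inflammatory receptor gene gpr84. A group of 38 genes held the cartilage genes COL9A1, COL9A3, acan and CNMD and was highest in Am580 1 (1.601) and DMSO 3 (2.45). A group of 52 genes held alas2, TFR2, SLC4A1 and GATA1 and was lowest in DMSO 6 (-3.29), with the 11 other libraries at -0.85 or above. It also held MSTRG.20852, named only beta-globin, at a mean of 1709 CPM with a pooled SD of 1.12. Loci named only beta, minor and major (MSTRG.1239, MSTRG.1237 and MSTRG.22643) averaged 1728, 1437 and 1434 CPM there, each with a pooled SD of 1.12. A group of 17 genes held ca3, BCAS1 and UGT8 and was lowest in DMSO 3 (-2.87), with the 11 others at -0.82 or above.

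Not every member of the erythroid group was a red cell gene. Alox5, a lipoxygenase of leukocytes, was at 9.93 to 23.2 CPM in Am580 blastemas, and at 0.370 CPM in DMSO 6 beside 5.63 to 14.4 CPM in the other DMSO blastemas. The splicing factor gene RBM5 at locus MSTRG.20428 was at 2.59 to 4.40 CPM in Am580 blastemas, and at 0 CPM in DMSO 6 beside 2.55 to 5.38 CPM in the other DMSO blastemas.

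The next groups were not assigned to a tissue. A group of 68 genes was high in Am580 1 (2.02), 3 (1.72) and 6 (2.17) and low in Am580 2 (-1.58), 4 (-2.17) and 5 (-2.15) and in DMSO 2 (-1.84). Its 68 genes lay on 61 scaffolds, and 43 had no reference transcript. A group of 53 genes, including the myosin genes myh4 and myh8, ran the opposite way in the same Am580 libraries, at -1.52, -1.70 and -1.74 in Am580 1, 3 and 6 and at 1.602, 1.75 and 1.605 in Am580 2, 4 and 5. Its 53 genes lay on 45 scaffolds, with 5 on the scaffold of myh8, and 2 belonged to the skeletal muscle list. One of the 5 was MSTRG.20128, named only myosin, at a mean of 89.7 CPM. HPX, the haem-binding plasma protein hemopexin, belonged to the group of 68 genes. It was at 45.0, 12.9 and 23.7 CPM in Am580 1, 3 and 6 and at 3.80, 2.48 and 4.92 CPM in Am580 2, 4 and 5. The DMSO blastemas lay between 9.12 and 16.4 CPM.

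A group of 18 genes with EEF1A2 and PPP1R1A was highest in Am580 1 (1.47) and DMSO 1 (1.18). The skeletal muscle list was highest in the same libraries and held 0 genes of this group. The group's loci MSTRG.20122 and MSTRG.20123 lie on the scaffold of myh8. A tie of the group to muscle was not tested. A group of 17 genes with EPS8 and ftcd was high in DMSO 1 (2.08) and low in DMSO 4 (-2.60) and DMSO 3 (-2.29). The 7 other groups were made mostly of loci without a symbol and were marked by low values. They were lowest in Am580 3, DMSO 3 and DMSO 4 (24 genes), in Am580 4 (23 genes), in DMSO 2 (21 genes), in Am580 6 (18 genes), in Am580 2 and 5 (16 genes), in Am580 1 and 6 (16 genes) and in Am580 1 (15 genes). The butyrylcholinesterase gene Bche was at 3.19 to 6.81 CPM in Am580 blastemas, and at 0.148 CPM in DMSO 2 beside 3.72 to 7.37 CPM in the other DMSO blastemas. LAG3, an inhibitory lymphocyte receptor, was at 4.09 CPM in Am580 2 and 7.22 CPM in Am580 5, beside 21.8 to 55.7 CPM in the 4 others, against 17.2 to 51.5 CPM in DMSO blastemas. The cadherin gene CDH26 had 0 CPM in Am580 1, and 0.679 to 3.57 CPM in the other Am580 and 1.48 to 2.66 CPM in DMSO blastemas.

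**Figure D4:**
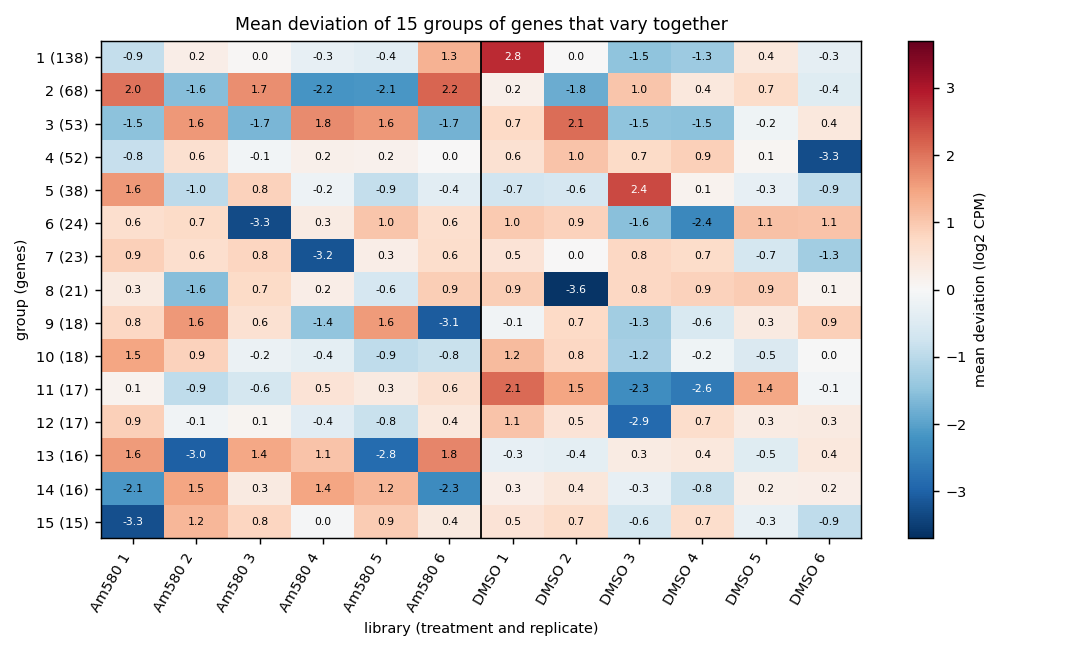
Mean deviation from the treatment mean, in log2 CPM, of 15 groups of genes that vary together (rows, numbered by size, with the number of genes) in 6 Am580 and 6 DMSO libraries (columns). Group 1 stands at 2.76 in DMSO 1, group 4 at -3.29 in DMSO 6, group 5 at 2.45 in DMSO 3, and groups 2 and 3 run opposite to each other in the Am580 libraries.

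The principal components of the deviations gave the same libraries weight. The first held 21.7% of the variance and set Am580 1, 3 and 6 and DMSO 3 and 4 apart from Am580 2, 4 and 5 and DMSO 2 and 6. Its ends were led by HEXA, ENO2, HPX, col9a2, FGFBP2 and loxl4 on the first side and by myh4, myh8, SLC2A3, lamb3, gng3 and NDUFAF3 on the other. The second held 15.1% and ran between DMSO 1 (0.73) and DMSO 3 (-0.53). COL17A1, lamb3, epcam, DSG2, SMTNL2 and PI15 led on the side of DMSO 1, and ENO2, MASP2, HAS1, FGFBP2, dpp4 and COL8A2 on the other. PI15, a protease inhibitor, was at 28.2 CPM in Am580 1 and 1.57 to 3.60 CPM in the other Am580 blastemas, and at 55.8 CPM in DMSO 1 and 3.95 to 12.8 CPM in the other DMSO blastemas. The protease gene dpp4 was at 11.7 to 29.6 CPM in Am580 blastemas, and at 5.55 CPM in DMSO 1 and 6.36 CPM in DMSO 5 beside 38.3 to 48.1 CPM in the other DMSO blastemas.

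Some loci were present or absent rather than more or less abundant. A locus was called all-or-none where 1 library had at most 3 counts and another of the same treatment at least 100. There were 326 such loci (1.26% of genes described), 197 within Am580, 221 within DMSO and 92 in both treatments. They made up 213 of the 301 genes with a pooled SD above 2, an overlap that the limits favour by construction. Of the 326, 228 (69.9%) had no reference transcript, beside 41.1% of all genes, and 16 had a gene symbol. Among the 301 genes with a pooled SD above 2, 212 had no reference transcript. In 48 of the 326 all-or-none loci every library was either at 3 counts or fewer or at 100 or more. The libraries above 3 counts lay within 4-fold of each other in 116 loci and within 2-fold in 17. Most of the 326 were thus graded among the libraries that held them. A further 149 loci met the same limits but were outside the filter on low counts.

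MSTRG.24083, at positions 22928 to 75050 of scaffold AMEXG_0030014765 in AmexG_v3.0.0, had no reference transcript. It was at 74.7, 65.9 and 63.7 CPM in Am580 1, 3 and 6 and at 0.0286, 0 and 0 CPM in Am580 2, 4 and 5. In DMSO blastemas it was at 0 CPM in DMSO 4 and at 49.4 to 103 CPM in the 5 others. MSTRG.20057, at positions 1410836 to 1554411 of scaffold AMEXG_0030007049, was at 0 CPM in Am580 2, Am580 5 and DMSO 6, at 0.183 CPM in Am580 4 and 0.111 CPM in DMSO 2, and at 22.1 to 130 CPM in the 7 others. Its pooled SD of 5.14 was the largest of the named loci.

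MSTRG.3582 was at 14.6, 20.7 and 18.8 CPM in Am580 1, 3 and 6 and at 0 CPM in Am580 2, 4 and 5, and at 12.6, 18.9 and 18.01 CPM in DMSO 1, 3 and 4 and at 0 CPM in DMSO 2, 5 and 6. MSTRG.1361 was nearly its mirror image, at 30.8, 20.001 and 8.53 CPM in Am580 2, 4 and 5 and at no more than 0.0915 CPM in Am580 1, 3 and 6. Among DMSO blastemas it was at 0 CPM in DMSO 3 and 0.0251 CPM in DMSO 4, and at 7.72 to 33.6 CPM in the others. They lie on different scaffolds.

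Other loci were near 0 in fewer blastemas. MSTRG.512 was at 0.279 CPM in Am580 3, 0.0649 CPM in DMSO 1 and 0.0263 CPM in DMSO 5, and at 59.4 to 113 CPM in the 9 others. MSTRG.14595 was at 0.0973 CPM in DMSO 1 only, beside 56.3 to 161 CPM in Am580 and 62.3 to 188 CPM in the other DMSO blastemas. MSTRG.28804 was at 0.203 CPM in Am580 3, 0.0592 CPM in DMSO 3 and 0.0251 CPM in DMSO 4, with Am580 2 (0.572 CPM) and DMSO 6 (1.17 CPM) also low and the 7 others at 18.5 to 95.8 CPM. MSTRG.10465 was at 0.0783 CPM in Am580 4 and 0.0212 CPM in Am580 5, beside 26.8 to 72.3 CPM in the other Am580 and 5.98 to 90.1 CPM in DMSO blastemas. The 3 counts that set the limit are worth 0.0636 to 0.111 CPM, depending on the library.

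**Figure D5:**
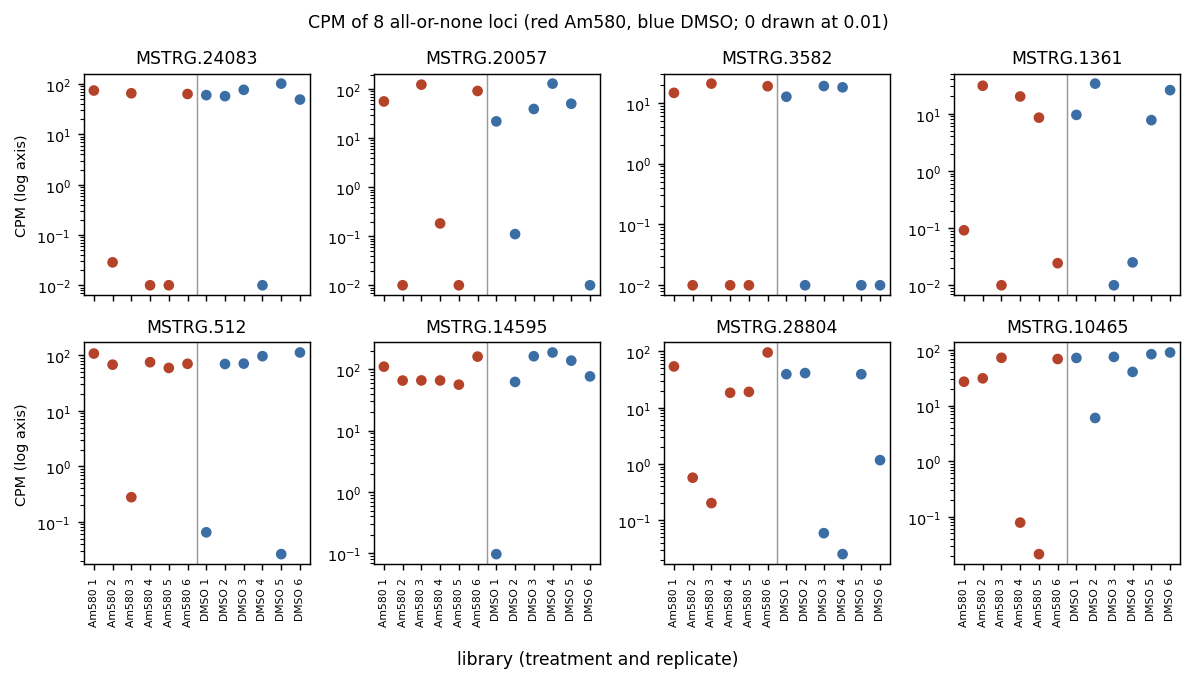
CPM on a log axis in each of the 6 Am580 (red) and 6 DMSO (blue) libraries for 8 all-or-none loci, with 0 drawn at 0.01. In each locus the low libraries lie far below the rest, at 0.279 CPM or less in MSTRG.512 beside 59.4 CPM or more, and different libraries are low in different loci.

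The all-or-none loci were spread over many scaffolds and over the libraries. They lay on 306 scaffolds, and of 9 pairs of neighbours within 1000000 bases on a scaffold, 3 had the same pattern. The places of scaffolds on chromosomes were not used, so linkage between scaffolds was not tested. Each library was at 3 counts or fewer in between 57 and 99 of the 326, with 99 each in DMSO 3 and DMSO 4. The low set held 1 library in 102 loci, 2 or 3 in 137 and 4 to 6 in 87. A set of more than 6 could not occur, since the filter asked for at least 10 counts in at least 6 libraries. In all, 148 different sets of low libraries occurred, and 233 loci shared their set with another locus. The 102 loci low in 1 library had only as many possible sets as there are libraries, so most of them were bound to share. The count of 233 therefore cannot be read as a sign of common patterns. Among larger sets, 7 loci on 7 scaffolds were low in exactly Am580 1, 3 and 6 and DMSO 3 and 4. A further 4 loci on 4 scaffolds were low in exactly Am580 2, 4 and 5 and DMSO 2, 5 and 6. Loci of near-identical sequence can share reads, and the part of read sharing in these patterns was not tested.

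Whether a gene's spread differed between the treatments was tested by limma on the absolute deviation of each library from its treatment median. At a Benjamini-Hochberg adjusted p under 0.05, 19 genes of 25879 were called (0.0734%), 9 with the larger spread in Am580 (0.0348%) and 10 in DMSO (0.0386%). Their log2 SD ratios ran between 1.91 and 4.03 in size. At an unadjusted p under 0.05 there were 955 genes (3.69%), 459 larger in Am580 (1.77%) and 496 in DMSO (1.92%). Of the 19, 16 had no reference transcript, 11 were all-or-none loci and 1 had a gene symbol. Over all genes described these shares were 41.1%, 1.26% and 38.0%. None of the 19 belonged to any of the 21 lists. The lists together hold only a small part of the genes described, so this is not a result about them. In all 19 the wider treatment split into 3 low and 3 high blastemas, a shape that the test favours by construction, since such a split gives 6 nearly equal deviations from the median. A single extreme blastema, as in COL17A1 or UGT8, moved the SD but was not called.

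Among the called loci, MSTRG.27558 was at 0, 0 and 0.0261 CPM in Am580 1, 3 and 4 beside 8.08 to 11.1 CPM in Am580 2, 5 and 6, against 8.24 to 19.4 CPM in all DMSO blastemas (limma adjusted p = 6.64e-06). MSTRG.10776 was at 0 CPM in Am580 2, 4 and 5 and at 4.56 to 5.31 CPM in Am580 1, 3 and 6, against 2.44 to 6.97 CPM in DMSO blastemas (limma adjusted p = 6.95e-06). MSTRG.23296 varied without reaching 0, at 11.3, 15.6 and 15.2 CPM in Am580 2, 3 and 5 and at 3.45 to 4.73 CPM in the others, against 5.33 to 7.53 CPM in DMSO blastemas (limma adjusted p = 0.0271).

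In the other direction, MSTRG.6989 was at 1.83 to 2.89 CPM in all Am580 blastemas, and at 0 CPM in DMSO 1, 5 and 6 beside 1.81 to 2.40 CPM in DMSO 2, 3 and 4 (limma adjusted p = 1.51e-07). MSTRG.27380 was at 6.43 to 22.4 CPM in Am580 blastemas, and at 0 CPM in DMSO 3, 5 and 6 beside 5.98 to 13.4 CPM in the other DMSO blastemas (limma adjusted p = 0.00018). MSTRG.13419 was at 2.02 to 2.59 CPM in Am580 blastemas, and at 0.0525 to 0.292 CPM in DMSO 1, 5 and 6 beside at least 2.92 CPM in the others (limma adjusted p = 0.0236). The only called gene with a symbol, HINFP, a zinc finger factor that activates histone H4 genes, was at 16.0 to 20.1 CPM in Am580 blastemas. It was at 9.17 to 9.92 CPM in DMSO 2, 3 and 4 and at 16.6 to 18.8 CPM in DMSO 1, 5 and 6 (limma adjusted p = 0.0419).

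Named genes nearest to a call but not past it showed splits or single shifts of smaller size. ZYX, the focal adhesion protein zyxin, was at 424, 354 and 367 CPM in Am580 2, 4 and 5 and at 196, 245 and 238 CPM in Am580 1, 3 and 6, against 161 to 189 CPM in DMSO blastemas (limma adjusted p = 0.347). SERPING1, the inhibitor of complement C1, was at 246, 181 and 194 CPM in Am580 1, 3 and 6 and at 74.8, 49.2 and 64.4 CPM in Am580 2, 4 and 5, against 133 to 256 CPM in DMSO blastemas (limma adjusted p = 0.542). HPX, described above, had a limma adjusted p of 0.538. MAD2L1BP, a regulator of the spindle checkpoint, was at 14.9 to 22.1 CPM in Am580 blastemas, and at 46.7, 49.2 and 63.6 CPM in DMSO 3, 4 and 5 beside 13.1 to 18.4 CPM in the other DMSO blastemas (limma adjusted p = 0.0722). LRIG1, a brake on growth factor receptors, was at 6.50 to 8.33 CPM in Am580 and 4.14 to 9.15 CPM in DMSO blastemas (limma adjusted p = 0.502). PRR5L, a component of mTOR complex 2, was at 16.2 to 18.03 CPM in Am580 and 13.0 to 27.4 CPM in DMSO blastemas (limma adjusted p = 0.538). The calls themselves depended on single libraries and on the form of the test. Leaving out any 1 library gave between 4 and 16 calls, and limma's test with an intensity trend gave 0.

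Whether a gene followed sequencing depth within treatments was tested last. With edgeR's quasi-likelihood test of the slope on log2 total count, 0 of 25879 genes passed an adjusted p of 0.05 (0%), and 718 (2.77%) had an unadjusted p under 0.05. DESeq2 called 5 genes at the adjusted threshold and 939 at the unadjusted one, and limma-voom 0 and 781.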

How the data were processed

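Paired reads from poly-A, strand-marked libraries were trimmed, aligned to AmexG_v3.0.0 with HISAT2 2.1.0, assembled and merged over both treatments with StringTie 1.3.4d and counted per gene on exons, reverse strand, with featureCounts (Subread 1.6.2) by the authors. The deposited count table holds whole-number counts of read pairs per gene, without normalization. The deposited assembly holds another kind of value, the start and end of each transcript on the scaffolds, and served for names and positions. Names were cut at the first word there, so a symbol was used only where it also stood in the RefSeq axolotl gene table. A deposited abundance table was not used. Columns of other series numbered 0.

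Log2 CPM were computed in R 4.3.3 with edgeR 4.0.16 (TMM factors, prior count 2) where 6 libraries or more held 10 counts or more of a gene, and 2341 of the 36917 genes had no count at all. SDs were taken within a treatment and pooled over both. Spread was tested with limma 3.58.1 on absolute deviations from the treatment median, and depth with edgeR's quasi-likelihood test, with DESeq2 1.42.0 as an alternative. The spread and depth tests were run on simulated counts, and the other steps were not. Among genes of at least 5 CPM, directions and sizes of simulated SD ratios were recovered, but few of the changed genes were called. A gene that was not called is therefore not shown to have equal spread. The simulated deviations were normal in log2 units and held no all-or-none pattern. Named genes were first, at a mean of 5 CPM or more, those of largest pooled SD, 12 with a gene symbol and 4 without a reference transcript. The same floor held for the 6 with a symbol at each end of components 1 and 2. The 8 called genes in each direction with the largest SD ratio were taken without that floor. So were the 3 most variable members of each list, the 8 all-or-none loci of highest CPM and up to 5 members of each group. The 5 genes of lowest unadjusted p in each direction were added, among those with a symbol and at least 1 CPM in each treatment. Each library is 1 blastema, but nothing in the labels says that replicate numbers pair animals, so p-values measure the spread between these blastemas. Counting intervals are not given for single values, and the precision of low values is limited by 3 counts being worth 0.0636 to 0.111 CPM. Some genes that met this rule are not reported here. The members, lists and tests were chosen with earlier results of these data known.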

Additional observations from a re-analysis of the deposited data

Results flagged for a closer look

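In groups of 6 blastemas, 1 library stood farther from the others than Dixon's limit allows in 28 of 170 groups of values examined. Chance flags about 1 in 20 groups, but most of the single genes were named for their large spread or all-or-none pattern, so their rate cannot be set against that share. The groups were 4 of library measures (1 beyond the limit), 42 of list deviations (5) and 124 of single genes (22). Am580 1 was beyond the limit in its median absolute deviation, at 0.311 log2 units. Among lists, the mean deviation stood apart for interferon response genes (0.451) and immediate early and heat shock genes (0.383) in Am580 6, for epidermis in DMSO 1 (2.12), for nerve and Schwann cell genes in DMSO 3 (-1.02) and for osteoclast genes in DMSO 5 (0.378).

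Of single genes, those of Am580 blastemas that stood apart were HEXA in Am580 5 (deviation -4.13 log2 units), MRI1 in Am580 6 (-3.76), tbrg4 in Am580 4 (-3.03), PI15 in Am580 1 (2.87) and MSTRG.512 in Am580 3 (-6.51). In DMSO 1 they were COL17A1 (4.66), MASP2 (-5.39), HAS1 (-3.34), HPX (0.62) and MSTRG.14595 (-7.97). In DMSO 2 they were tbrg4 (-2.70), Bche (-3.96), MSTRG.10776 (-1.05) and MSTRG.10465 (-2.94). In DMSO 3 they were CNMD (3.18) and UGT8 (-3.13). In DMSO 4 they were NDUFAF3 (-3.69) and MSTRG.24083 (-8.54). In DMSO 6 they were MRI1 (-3.76), Alox5 (-3.58), RBM5 (-5.20) and MSTRG.27558 (0.91).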

How the results depend on the processing

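The spread over all genes, Am580 minus DMSO, changed sign without Am580 1 and ranged between -0.0343 and 0.0166 log2 units when 1 library at a time was left out. With Am580 1 and DMSO 1 left out together, chosen after seeing the data, it was -0.0228, the biological coefficient of variation was 0.270 in Am580 and 0.285 in DMSO blastemas, and 0 genes differed in spread. That coefficient ranged between 0.276 and 0.320 in Am580 and between 0.291 and 0.321 in DMSO blastemas when 1 library was left out, and was 0.289 in DMSO for genes of at least 1 CPM. The 19 genes whose spread differed became 115 with no filter on low counts, 34 with deviations from the mean and 5 with squared deviations. They became 3 with an F test of variances, 0 with an intensity trend in limma and 0 among genes with a gene symbol. When 1 library was left out, 4 to 16 were called. With 5 libraries in a treatment 1 deviation from the median is 0 by construction, and all such calls had the larger spread in the complete treatment. Genes that tracked depth numbered 1 with no filter and 5 with DESeq2, against 0. All-or-none loci, at limits chosen after seeing the data, numbered 206 at 0 counts against 100, 607 at a high limit of 50 and 173 at 200.

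Same-numbered Am580 and DMSO libraries shared only a number: the correlations of their deviations lay between -0.17 and 0.23, and 1 of 6 matched its own number best. With the replicate block, 11 genes differed in spread, 6 of them larger in Am580, and the paired difference over all genes was 0.0032 (exact permutation p = 0.875). Depth and 6 blastemas a treatment limit the values of loci near 3 counts and the power of the spread test.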
